A study of Homo sapiens with 12 samples.

Results

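The genes described here are 40 liver plasma protein and hepatocyte enzyme genes, picked by symbol from a table of 62262 genes and followed across 12 libraries of cultured human podocytes. The list was drawn up with levels in these libraries already known, so the levels and their pattern are a description and carry no test of their own. The questions were which libraries were high and whether the ratios between the genes stayed constant. Of the 40 genes, 6 (CLU, SELENOP, SERPINA3, CP, RBP4 and TF) are also made in many other tissues and are called broad. The other 34, SERPINA1 among them, are called liver-restricted here, a label that does not mean made in liver alone. All 40 had counts, and 38 passed the filter on low counts used for testing.

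The cells were a conditionally immortalized human podocyte line, an epithelial cell of the kidney glomerulus carrying a temperature-sensitive SV40 T gene and differentiated at the temperature that inactivates it. The medium held fetal bovine serum and an insulin, transferrin and selenium supplement. Differentiated cells received 1 of 3 drugs at 100 nM for 24 h, CSA (cyclosporine A), TAC (tacrolimus) or VCS (voclosporin), or the solvent DMSO for the same time, with 3 libraries in each of the 4 groups. All groups share 1 cell line, and the sources used here do not say whether replicates were wells, passages or separate days, so p-values measure only the spread between these libraries, which may be technical. All 3 compounds inhibit calcineurin, a calcium-dependent phosphatase; voclosporin is an analog of cyclosporine A and tacrolimus is a macrolide.

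Hepatocytes make most of the proteins of blood plasma. Albumin holds the plasma's osmotic pressure and carries fatty acids and hormones, while other hepatocyte products carry iron, retinol and thyroid hormone, form clots, package lipid and rise during inflammation. Their genes are read in hepatocytes under combinations of transcription factors that include HNF4A, FOXA factors and C/EBP alpha. Podocytes are not known as a source of most of them.

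Library totals ran from 28808213 to 36077072 counts. Podocyte genes differed in level: NPHS1, the nephrin gene, had 1 to 11 counts per library and the channel gene TRPC6 had 0 to 6, while the cytoskeletal gene SYNPO had 1351 to 2321 and the transcription factor gene WT1 20 to 50. Levels are given as CPM, counts scaled to library size. The summed level of 11 podocyte genes ran from 1527 to 1882 CPM, with 7 of the 11 past the filter on low counts and most of the sum from the actin cross-linker gene ACTN4. In bulk RNA, a change in the number of cells of a type and a change in RNA per cell cannot be told apart.

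Together the 40 genes took between 0.0384% and 0.0793% of the counts of a library. ALB, the gene of serum albumin (chr4:73397114-73421412, plus strand, GRCh38), led with 74688 counts over the 12 libraries, between 3314 and 9268 in each. Per kb of exon the mean level over the 12 libraries was 56.9 CPM for ALB, 16.4 for ORM1, 13.2 for SERPINA1, 12.5 for HP, 3.94 for FGB and 3.83 for TTR. On this length-scaled level, ALB was therefore the highest of the 40 in these cells. The length used was every annotated exon base of a gene, 901 for ORM1 and 5405 for HP, and not that of 1 transcript. The order of the other genes depends on that choice.

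The summed level of the 34 liver-restricted genes was 341.2, 665.1 and 588.4 CPM in CSA libraries 1, 2 and 3. It was 694.3, 635.7 and 606.3 CPM in TAC libraries, 678.8, 342.7 and 344.8 CPM in VCS libraries, and 398.9, 354.3 and 452.5 CPM in DMSO libraries. All 3 TAC libraries, CSA 2, CSA 3 and VCS 1 were above every DMSO library, while CSA 1, VCS 2 and VCS 3 were below every DMSO library. The group means were 531.5 ± 169.2 CPM in CSA, 645.4 ± 44.8 CPM in TAC, 455.4 ± 193.4 CPM in VCS and 401.9 ± 49.2 CPM in DMSO (SD, n = 3 each). The CSA and VCS groups thus each held high and low libraries, and the widest gap between single libraries was 2.03-fold. Over the 6 broadly expressed genes, the summed level ran from 50.9 to 103.4 CPM and the same 6 libraries were the highest.

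**Figure D1:**
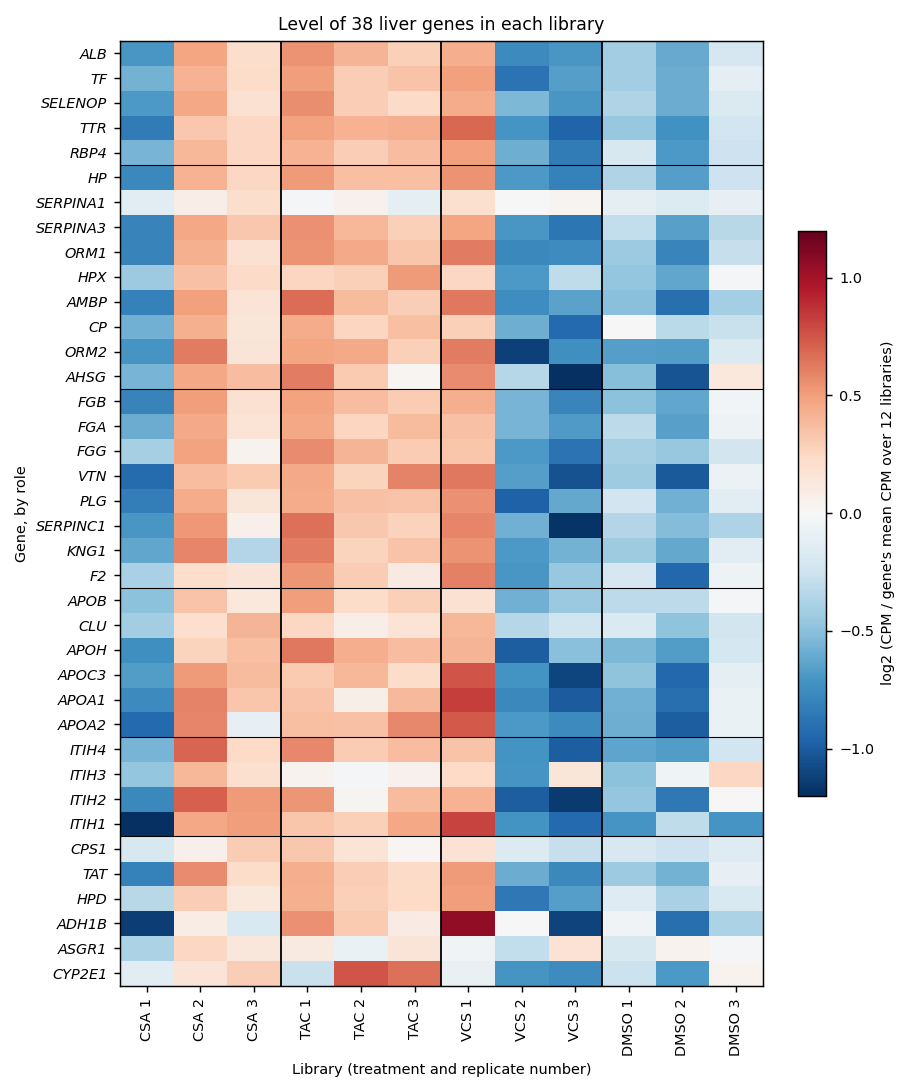
Each row is 1 of the 38 tested genes, grouped by role between horizontal lines, and each column is a library; color is the log2 of its CPM over the gene's mean CPM in the 12 libraries. The columns CSA 2, CSA 3, TAC 1, TAC 2, TAC 3 and VCS 1 are red for most genes, while SERPINA1, CPS1 and ASGR1 are pale across all columns.

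These 6 libraries (CSA 2, CSA 3, TAC 1, TAC 2, TAC 3 and VCS 1) were the 6 highest for 30 of the 40 genes, all of them among the 38 tested. The same was true of 116 of all 19784 tested genes, or 0.586%, and these 116 include the 30. The 6 libraries were picked as those most often highest among the 40 genes, so nothing is read from that share. The pattern held for all 6 broad genes and for 24 of the 34 restricted ones. It did not hold for SERPINA1, ITIH3, CYP2E1, ADH1B, ASGR1, KNG1, APOA2, AHSG, HRG and ADH4. Some of these missed it narrowly: APOA2, an apolipoprotein of high-density lipoprotein, was at 1.36 CPM in CSA 3, against 1.38 CPM in DMSO 3.

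Among the transport proteins, ALB was at 118.6, 266.5 and 222.9 CPM in CSA libraries, 280.2, 255.9 and 234.4 CPM in TAC libraries, 259.5, 112.9 and 118.5 CPM in VCS libraries, and 144.1, 126.5 and 167.1 CPM in DMSO libraries. TF, the iron carrier transferrin, was at 10.4, 20.4 and 17.9 CPM in CSA libraries, 21.7, 18.8 and 19.5 CPM in TAC libraries, 21.5, 8.27 and 9.69 CPM in VCS libraries, and 11.5, 10.1 and 14.2 CPM in DMSO libraries. TTR, which carries thyroid hormone and binds the retinol carrier RBP4, was at 5.12, 11.5 and 10.9 CPM in CSA libraries, 12.8, 12.2 and 12.4 CPM in TAC libraries, 14.8, 5.64 and 4.72 CPM in VCS libraries, and 6.69, 5.54 and 7.85 CPM in DMSO libraries. In all 3 genes the TAC libraries lay above the DMSO libraries without overlap, and the VCS libraries spanned both sides of the DMSO range. CSA 1 was below the DMSO libraries for ALB and TTR and within their range for TF, with CSA 2 and CSA 3 above. RBP4 ran from 3.22 CPM in VCS 3 to 8.1 CPM in VCS 1, and SELENOP, the selenium carrier, from 6.4 CPM in VCS 3 to 15.4 CPM in TAC 1.

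**Figure D2:**
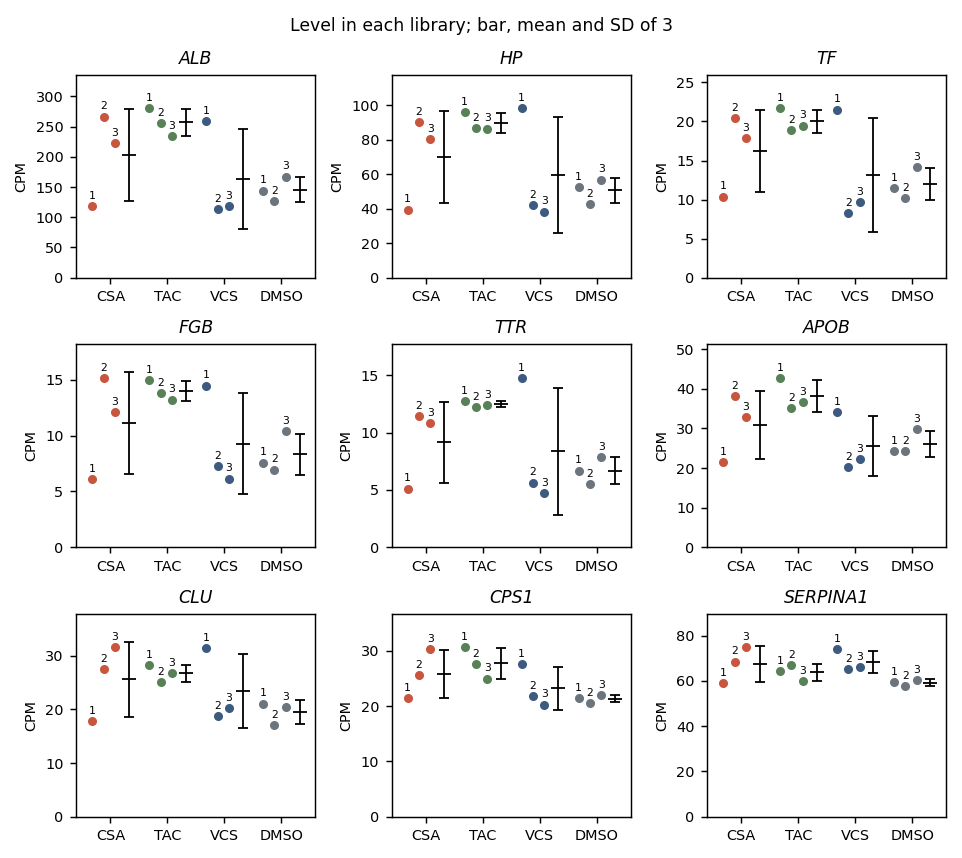
Points are the CPM of 9 genes in single libraries, numbered by replicate, and the bar beside them is the mean and SD of 3 libraries; every axis starts at 0. CSA 1, VCS 2 and VCS 3 sit low and CSA 2, CSA 3 and VCS 1 high for ALB, HP, TF, FGB, TTR and APOB, while SERPINA1 stays between 57.7 and 74.8 CPM.

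Among the acute phase and scavenging genes, HP encodes haptoglobin, which binds free hemoglobin (chr16:72054592-72061055, plus strand). HP was at 39.6, 90.1 and 80.4 CPM in CSA libraries, 96.2, 86.6 and 86.5 CPM in TAC libraries, 98.2, 41.9 and 38.4 CPM in VCS libraries, and 52.5, 42.7 and 56.9 CPM in DMSO libraries. VCS 1 was the highest of the 12 libraries and VCS 3 the lowest, so the VCS group alone spanned the whole range. HPX, which binds heme, ran from 5.09 CPM in VCS 2 to 11.7 CPM in TAC 3, and CP, the copper-carrying ferroxidase ceruloplasmin, from 2.58 CPM in VCS 3 to 6.71 CPM in TAC 1. AMBP, the precursor of alpha-1-microglobulin and bikunin, ran from 3.94 CPM in DMSO 2 to 11.8 CPM in TAC 1. SERPINA3, an inhibitor of chymotrypsin-like proteases, was at 9.17, 22 and 20.0 CPM in CSA libraries, 23.3, 21.1 and 19.4 CPM in TAC libraries, 22.2, 9.85 and 8.76 CPM in VCS libraries, and 13, 10.1 and 12.7 CPM in DMSO libraries. AHSG, which encodes fetuin-A, had only 6 to 35 counts per library.

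ORM1 and ORM2 encode the acute phase orosomucoids and lie side by side on chromosome 9. Over 606 coding bases of GENCODE 29 they differed at 31, an identity of 94.9%, and 49.8% of the 31-base words of ORM1 transcripts were also in ORM2. Coding bases 254 to 403, counted from the start codon, hold 25 of the differences and are printed to show where reads can tell the genes apart, with differing bases in capitals.
ORM1: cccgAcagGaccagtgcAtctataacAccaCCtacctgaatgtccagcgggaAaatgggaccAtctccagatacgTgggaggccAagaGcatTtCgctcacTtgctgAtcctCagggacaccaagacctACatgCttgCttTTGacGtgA
ORM2: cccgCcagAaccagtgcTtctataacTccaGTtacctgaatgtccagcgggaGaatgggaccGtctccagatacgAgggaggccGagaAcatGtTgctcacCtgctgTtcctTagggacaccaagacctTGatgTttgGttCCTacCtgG
Reads from identical stretches could be given to either gene, so the split between them is uncertain. ORM1 was at 8.5, 19.9 and 16.7 CPM in CSA libraries, 21.5, 20.2 and 18.6 CPM in TAC libraries, 22.8, 8.67 and 8.76 CPM in VCS libraries, and 10.9, 8.55 and 12.2 CPM in DMSO libraries. ORM2 was lower, from 1.15 CPM in VCS 2 to 3.85 CPM in CSA 2, and both had the same 6 highest libraries. Other genes share words with a relative or an overlapping transcript: 15.9% of HP words with HPR, 17.5% of PLG words with PLGLB1, 30.4% of SERPINA3 words with AL049839.2 and 68.8% of ITIH4 words with AC006254.1.

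SERPINA1, which encodes alpha-1-antitrypsin, the main inhibitor of neutrophil elastase (chr14:94376747-94390693, minus strand), behaved differently. It was at 58.9, 68.6 and 74.8 CPM in CSA libraries, 64.3, 67.1 and 59.9 CPM in TAC libraries, 74.2, 65.1 and 66.2 CPM in VCS libraries, and 59.7, 57.7 and 60.5 CPM in DMSO libraries. With 25066 counts in all it was measured about as precisely as HP, yet its highest library was only 1.30-fold above its lowest, against 2.56-fold for HP. The low libraries of the other genes, CSA 1, VCS 2 and VCS 3, were not set apart in SERPINA1.

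Of the clotting and fibrinolysis genes, FGA, FGB and FGG encode the 3 chains of fibrinogen and lie next to each other on chromosome 4. FGB was at 6.11, 15.2 and 12.1 CPM in CSA libraries, 14.9, 13.8 and 13.2 CPM in TAC libraries, 14.5, 7.24 and 6.15 CPM in VCS libraries, and 7.57, 6.95 and 10.4 CPM in DMSO libraries. FGA ran from 6.22 CPM in VCS 3 to 13.8 CPM in TAC 1 and FGG from 4.18 CPM in VCS 3 to 11.4 CPM in TAC 1. Of the summed counts of the 3 genes in a library, FGA took 33.3 to 37.6%, FGB 32.9 to 39.2% and FGG 24.9 to 31.5%. The shares thus varied less between libraries than the levels did. In CSA 2, a high library, the FGB share was 38.3% (exact Clopper-Pearson 95% interval 35.6 to 41.1%), and in CSA 1, a low one, 32.9% (29.3 to 36.7%). These intervals overlap, which does not show that the share was unchanged. Intervals cover counting error only, since counts may not be independent molecules. PLG, the precursor of plasmin, ran from 2.21 CPM in VCS 2 to 6.3 CPM in VCS 1, and SERPINC1, antithrombin, from 1.54 CPM in VCS 3 to 5.5 CPM in TAC 1. VTN (vitronectin) spanned 2.18 to 7.01 CPM, F2 (prothrombin) 1.2 to 3.52 CPM and KNG1 (kininogen) 1.51 to 3.75 CPM. HRG, a histidine-rich plasma protein, had 2 to 15 counts per library and was not tested.

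APOB, the structural protein of low-density lipoprotein, was at 21.5, 38.2 and 32.8 CPM in CSA libraries, 42.7, 35.1 and 36.7 CPM in TAC libraries, 34.2, 20.2 and 22.2 CPM in VCS libraries, and 24.2, 24.2 and 29.8 CPM in DMSO libraries. CLU, the broadly made chaperone clusterin, was at 17.9, 27.5 and 31.6 CPM in CSA libraries, 28.3, 25.1 and 26.8 CPM in TAC libraries, 31.4, 18.8 and 20.2 CPM in VCS libraries, and 21.1, 17.0 and 20.5 CPM in DMSO libraries. Both kept the order of high and low libraries over a narrower range than ALB, 2.12-fold for APOB and 1.85-fold for CLU, against 2.48-fold for ALB. APOA1, the main protein of high-density lipoprotein, ran from 0.751 CPM in VCS 3 to 2.66 CPM in VCS 1, APOC3, an inhibitor of lipoprotein lipase, from 1.32 to 4.8 CPM in the same libraries, and APOH, beta-2-glycoprotein I, from 2.64 CPM in VCS 2 to 8.1 CPM in TAC 1.

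The genes of the inter-alpha-trypsin inhibitor heavy chain family differed among themselves. ITIH4 was at 3.38, 8.09 and 5.88 CPM in CSA libraries, 7.41, 6.14 and 6.42 CPM in TAC libraries, 6.3, 3.03 and 2.5 CPM in VCS libraries, and 3.22, 3.14 and 4.25 CPM in DMSO libraries. ITIH1 ran from 0.559 CPM in CSA 1 to 2.27 CPM in VCS 1, and ITIH2 from 0.68 CPM in VCS 3 to 2.48 CPM in CSA 2. ITIH3 did not follow: it was at 2.64 CPM in DMSO 3 and 2.47 CPM in VCS 3, above all 3 TAC libraries.

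Of the enzymes, TAT, which starts tyrosine breakdown, was at 4.88, 12.7 and 10.0 CPM in CSA libraries, 11.6, 10.5 and 10.1 CPM in TAC libraries, 12.3, 5.7 and 5.01 CPM in VCS libraries, and 6.35, 5.78 and 8.01 CPM in DMSO libraries. HPD, which acts later in the same route, ran from 2.97 CPM in VCS 2 to 7.62 CPM in VCS 1. CPS1, the mitochondrial entry enzyme of the urea cycle, was at 21.5, 25.6 and 30.2 CPM in CSA libraries, 30.6, 27.5 and 25.0 CPM in TAC libraries, 27.7, 21.8 and 20.3 CPM in VCS libraries, and 21.4, 20.6 and 22 CPM in DMSO libraries. CPS1 therefore kept the 6 highest libraries but over a range of only 1.51-fold. ADH1B, an alcohol dehydrogenase, was highest in VCS 1 at 5.63 CPM and lowest in CSA 1 at 1.23 CPM. ASGR1, a subunit of the hepatocyte asialoglycoprotein receptor, stayed between 2.0 and 3.09 CPM. CYP2E1, an ethanol-oxidizing cytochrome P450, had 9 to 31 counts per library and ADH4, another alcohol dehydrogenase, 3 to 8.

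The mean of TAC over the mean of DMSO was 1.76 for ALB, and single libraries of CSA and of VCS differed by more than that. CSA 2 was 2.25-fold above CSA 1 for ALB, and the median over the 38 tested genes was 2.24-fold, from 1.16-fold for SERPINA1 to 3.19-fold for ITIH1. VCS 1 was 2.30-fold above VCS 2 for ALB, with a median of 2.25-fold, from 1.14-fold for SERPINA1 to 3.34-fold for ORM2. Over all tested genes the median of these ratios was 1.00 for CSA 2 over CSA 1 and 0.999 for VCS 1 over VCS 2. The other groups were closer together, with ALB 1.2-fold higher in TAC 1 than in TAC 3 and 1.32-fold higher in DMSO 3 than in DMSO 2.

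For most of the well-counted genes the ratio to ALB varied less than the level. Per 100 ALB counts, HP had 33.4, 33.8 and 36.1 counts in CSA libraries, 34.3, 33.9 and 36.9 in TAC libraries, 37.9, 37.1 and 32.4 in VCS libraries, and 36.4, 33.7 and 34.0 in DMSO libraries. The coefficient of variation (CV, the SD over the mean) of this ratio over the 12 libraries was 5.06%, where counting error alone gives 2.62% and the HP level itself varied by 35.8%. TF had 8.75, 7.67 and 8.03 counts per 100 ALB counts in CSA libraries, 7.74, 7.37 and 8.31 in TAC libraries, 8.29, 7.32 and 8.18 in VCS libraries, and 7.97, 8.02 and 8.48 in DMSO libraries. The CV of the TF ratio was 5.37%, against 4.89% from counting error. VCS 1 and VCS 2, far apart in level, had HP ratios of 37.9 and 37.1. VCS 3, low in level like VCS 2, had 32.4, so the VCS group held both the highest and the lowest HP ratio.

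Ratios to ALB were computed for the 27 other genes with 1000 or more counts over the 12 libraries. The median CV of the ratio was 9.99%, where counting error alone gives a median of 6.47% and the levels themselves had a median CV of 34.3%. The CV of the ratio was below 0.5 times that of the level for 20 of the 27 genes. It was under 10% for 14 genes, among them SELENOP (5.99%), SERPINA3 (6.19%), ORM1 (6.48%), TAT (6.93%) and FGB (7.07%). APOB had a CV of 12.6%, against 3.54% from counting error, and CLU 19.0%, against 3.91%, so neither kept a fixed ratio to ALB within counting error. CP (14.0%, against 8.35%), HPX (14.2%, against 6.47%) and VTN (15.0%, against 8.99%) were also above it, as was HP (5.06%, against 2.62%). ADH1B, at 32.6% against 11.6%, was second to SERPINA1. For 3 genes, CPS1, ASGR1 and SERPINA1, the ratio to ALB varied more than the level did.

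SERPINA1 had 49.7, 25.7 and 33.5 counts per 100 ALB counts in CSA libraries, 22.9, 26.2 and 25.6 in TAC libraries, 28.6, 57.7 and 55.8 in VCS libraries, and 41.4, 45.6 and 36.2 in DMSO libraries. The CV of this ratio was 33.1%, where the level of SERPINA1 varied by 8.87% and counting error gives 2.57%. CPS1 had 18.1, 9.62 and 13.6 counts per 100 ALB counts in CSA libraries, 10.9, 10.8 and 10.7 in TAC libraries, 10.7, 19.3 and 17.1 in VCS libraries, and 14.9, 16.3 and 13.2 in DMSO libraries. Both ratios were highest in CSA 1, VCS 2 and VCS 3, the 3 libraries with the least ALB. As a share of the summed counts of the 34 restricted genes, SERPINA1 took 9.26% in TAC 1 and 19.2% in VCS 3 (18.4 to 20.0%), while ALB took 40.3% in TAC 1 (39.7 to 41.0%) and 33.0% in VCS 2 (32.1 to 33.8%). Ratios to ALB thus ran from narrowly spread, as for HP and TF, to as variable as those of SERPINA1, ADH1B, ASGR1 and CPS1. The HP ratio, though narrow, still varied by more than counting error gives. Whether carried-over RNA had a part in these levels was not tested.

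**Figure D3:**
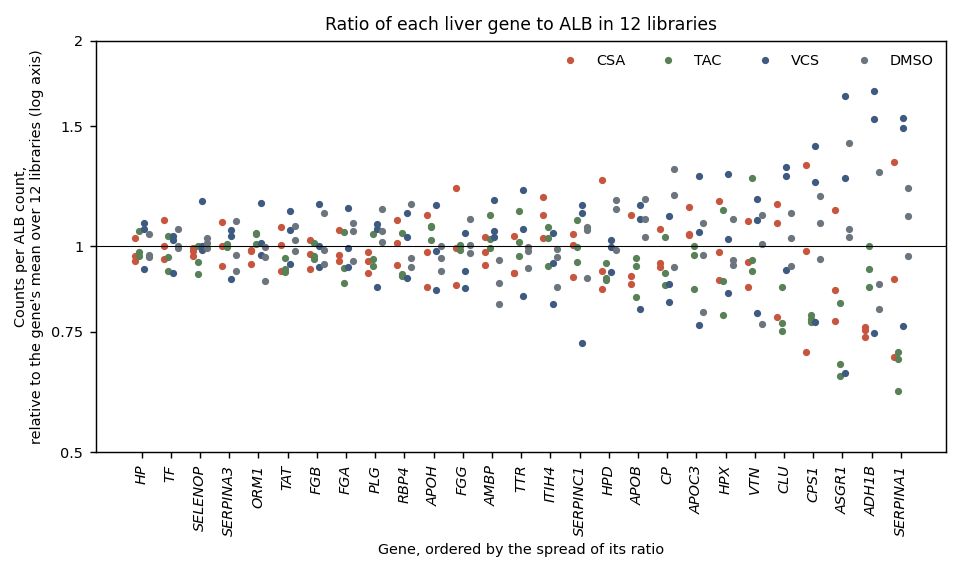
Each point is 1 library: the counts of a gene per ALB count, over the gene's mean of that ratio in the 12 libraries, on a log axis, for the 27 genes with 1000 or more counts, ordered by spread. HP and TF, at the left, have the narrowest spread (CV 5.06% and 5.37%), and SERPINA1, at the right, has the widest spread (CV 33.1%).

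Each inhibitor was compared with DMSO, tested with edgeR's quasi-likelihood test over all 19784 tested genes. At a Benjamini-Hochberg adjusted p under 0.05, 2 genes passed for CSA against DMSO (0.0101%), 7 for TAC (0.0354%) and 1 for VCS (0.00505%), and no gene of the list was among them. At an unadjusted p under 0.05 there were 0, 22 and 0 of the 38 genes, where all 19784 tested genes had 741, 919 and 647. The counts of listed genes rest on single libraries. CSA had 20 without CSA 1, 5 without VCS 1 and at most 2 without any other library. Over all tested genes, CSA had 807 without CSA 1 and 712 without VCS 1. TAC had between 4 listed genes without DMSO 2 and 31 without VCS 1. It had 6 without TAC 1, 14 without TAC 2, 13 without TAC 3 and 10 without DMSO 1. DESeq2 and the fit with replicate number as a block also called none of the 38; the block moved the count over all genes to 6 for CSA and 41 for TAC. The inhibitors share the 3 DMSO libraries, so these comparisons are not independent.

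For TAC against DMSO all 38 fold changes were above 0, with a median log2 of 0.74, where all tested genes had a median of -0.00. In 33 of the 38, every TAC library exceeded every DMSO library, which held for 5.99% of all tested genes; the genes were listed with these levels known, so nothing is read from that share. The largest fold change was that of AMBP, at log2 1.05 (SE 0.36, adjusted p = 0.92). ALB averaged 256.8 ± 22.9 CPM in TAC and 145.9 ± 20.4 CPM in DMSO (SD, n = 3 each), a log2 fold change of 0.82 (SE 0.31, 95% interval 0.10 to 1.53, edgeR adjusted p = 0.92). SERPINA1 had a log2 fold change of 0.11 (SE 0.10) and ITIH3 of 0.10 (SE 0.29). The 5 genes whose groups overlapped were SERPINA1, ITIH3, ASGR1, AHSG and CYP2E1. Without the filter on low counts, 14 of the 40 genes passed, ALB with an adjusted p of 0.000244, HP with 0.00021, ORM1 with 0.000299 and AMBP with 0.000834, and 131 of all genes.

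For CSA against DMSO all 38 fold changes were also above 0 (9694 of all 19784 tested genes), with a median log2 of 0.44. In none of the 38 did every CSA library exceed every DMSO library (4.94% of all tested genes). ALB averaged 202.7 ± 76.0 CPM in CSA and 145.9 ± 20.4 CPM in DMSO (SD, n = 3 each), a log2 fold change of 0.47 (SE 0.31, 95% interval -0.24 to 1.19, edgeR adjusted p = 0.939). For VCS against DMSO, 35 of the 38 were above 0 (10071 of all 19784 tested genes), with a median log2 of 0.19. ALB averaged 163.6 ± 83.0 CPM in VCS, a log2 fold change of 0.17 (SE 0.31, 95% interval -0.55 to 0.88, edgeR adjusted p = 0.964). The genes below 0 were CYP2E1 (-0.21, SE 0.38), CP (-0.12, SE 0.29) and APOB (-0.03, SE 0.22). SERPINA1 was the 1 gene in which every VCS library exceeded every DMSO library (3.32% of all tested genes), at log2 0.21 (SE 0.10, edgeR adjusted p = 0.963). The VCS median rests on VCS 1: without that library it was -0.33, and the direction turned.

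**Figure D4:**
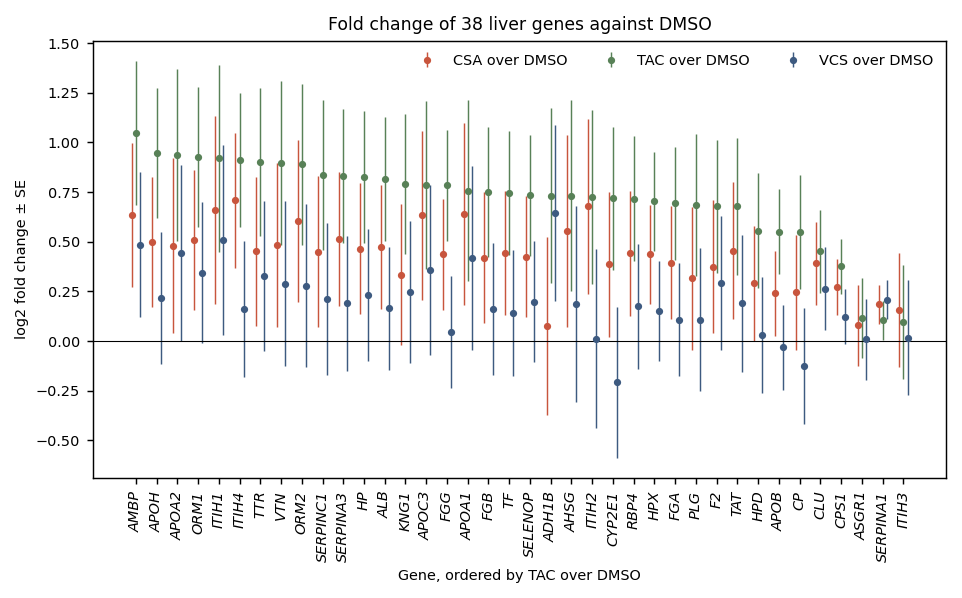
Points are log2 fold changes of 38 genes for CSA, TAC and VCS, each over DMSO, with bars of 1 SE from the fit over all 12 libraries, ordered by TAC over DMSO. The TAC points lie from 0.10 (ITIH3) to 1.05 (AMBP), most CSA points lie lower and most VCS points lower still.

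Between inhibitors, 2 genes of 19784 passed for VCS against CSA (0.0101%), 6 for CSA against TAC (0.0303%) and 5 for VCS against TAC (0.0253%), and again no gene of the list passed by edgeR's quasi-likelihood test or DESeq2. At an unadjusted p under 0.05 there were 0, 0 and 7 of the 38, where all 19784 tested genes had 503, 1488 and 718. Without VCS 1 the counts of listed genes were 26 for VCS against CSA and 34 for VCS against TAC. The count of listed genes for VCS against TAC was 0 without VCS 2 or VCS 3 and 1 without TAC 1. It was 3 without TAC 2, 2 without TAC 3 and 11 without CSA 1. With the replicate block, 41 genes passed for VCS against TAC, none of them on the list. VCS and CSA, which are structural analogs, differed for ALB by a log2 of -0.31 (95% interval -1.02 to 0.41), an interval that leaves room for a difference either way. CSA and TAC differed for ALB by -0.34 (95% interval -1.05 to 0.37), and VCS and TAC by -0.65 (95% interval -1.37 to 0.07). The median over the 38 genes was -0.25 for VCS over CSA, -0.30 for CSA over TAC and -0.57 for VCS over TAC. Without VCS 1 the medians were -0.79 for VCS over CSA and -1.15 for VCS over TAC. Every CSA library was below every TAC library for 3 of the 38 genes (6.74% of all tested genes), and every VCS library below every TAC library for 2 (4.12%). Without the filter on low counts, ALB, APOB and HP passed for VCS against TAC.

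Further liver genes were listed from general knowledge of the tissue, with earlier results of these data known. Their summed levels had the same high libraries. The summed level of 35 further secreted liver proteins was 32.7, 49.6 and 45.2 CPM in CSA libraries, 50.9, 48.7 and 48.1 CPM in TAC libraries, 50.1, 30.1 and 31.9 CPM in VCS libraries, and 36.3, 31.2 and 37.7 CPM in DMSO libraries. That of 29 further hepatocyte enzymes and transporters was 35.1, 71.2 and 58.4 CPM in CSA libraries, 69.8, 66.8 and 62.8 CPM in TAC libraries, 70.4, 34.4 and 33.5 CPM in VCS libraries, and 42.5, 35.9 and 48.6 CPM in DMSO libraries. In both lists the 6 highest sums were those of the same libraries as for the 40 genes. Gene by gene, 10 of 22 tested secreted proteins and 11 of 25 tested enzymes had these 6 highest, against 0.586% of all tested genes. The lists were drawn up with earlier results known, so nothing is read from that share. For TAC against DMSO, 22 of 22 and 23 of 25 had fold changes above 0, with a median log2 of 0.52 and 0.76. None passed by edgeR (7 and 8 at an unadjusted p under 0.05). Of all 19784 tested genes, 9703 were above 0 and 919 had an unadjusted p under 0.05. AGT, which encodes angiotensinogen, had the most counts of the secreted proteins.

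Liver transcription factors did not follow. Their summed level was 82.5, 95.5 and 79.9 CPM in CSA libraries, 81.8, 86.0 and 77.5 CPM in TAC libraries, 90.9, 93.3 and 80.2 CPM in VCS libraries, and 82.7, 88.5 and 79.7 CPM in DMSO libraries. None of 9 tested had the same 6 highest libraries, which held for 0.586% of all tested genes, so nothing is read from that count. Most of the sum came from 1 gene. HNF4A had 10 to 42 counts per library and CEBPA 9 to 34.

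Markers of other tissues were summed in the same way. Lung and airway markers, led by the surfactant gene SFTPB, stood at 29.1, 28.8 and 19.4 CPM in CSA libraries, 29.8, 22.7 and 25.0 CPM in TAC libraries, 49.3, 29.1 and 24.5 CPM in VCS libraries, and 36.9, 25.6 and 29.3 CPM in DMSO libraries. SFTPA1 of that list passed against DMSO for CSA (log2 -4.19, edgeR adjusted p = 0.0258) and TAC (log2 -4.41, edgeR adjusted p = 0.0143), with 1 to 12 counts in each CSA and TAC library against 59 to 148 in each VCS library and 99 to 140 in each DMSO library. Stratified epithelium markers, led by KRT10, ran from 53.3 to 85.7 CPM and were highest in the VCS and DMSO libraries. Kidney tubule markers, led by PAX8, ran from 363.1 to 630.5 CPM, leukocyte markers, led by CD68, from 57.5 to 91.2 CPM, and brain markers, led by NEFL, from 70.8 to 107.5 CPM. Stomach and intestine markers, led by MUC2, ran from 7.27 to 15.6 CPM, pancreas markers, led by CEL, from 4.18 to 8.64 CPM, erythroid markers, led by HBD, from 3.18 to 6.2 CPM, striated muscle markers, led by TTN, from 1.91 to 3.3 CPM, and thyroid and testis markers, led by TG, from 1.6 to 3.2 CPM. In none of these lists, nor in the podocyte list, did a tested gene have the 6 highest libraries of the liver genes. The lists held from 1 tested gene (pancreas) to 11 (lung and airway). Over all tested genes the share was 0.586%, so nothing is read from the absence. Their part in the levels of the liver genes was not tested.

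**Figure D5:**
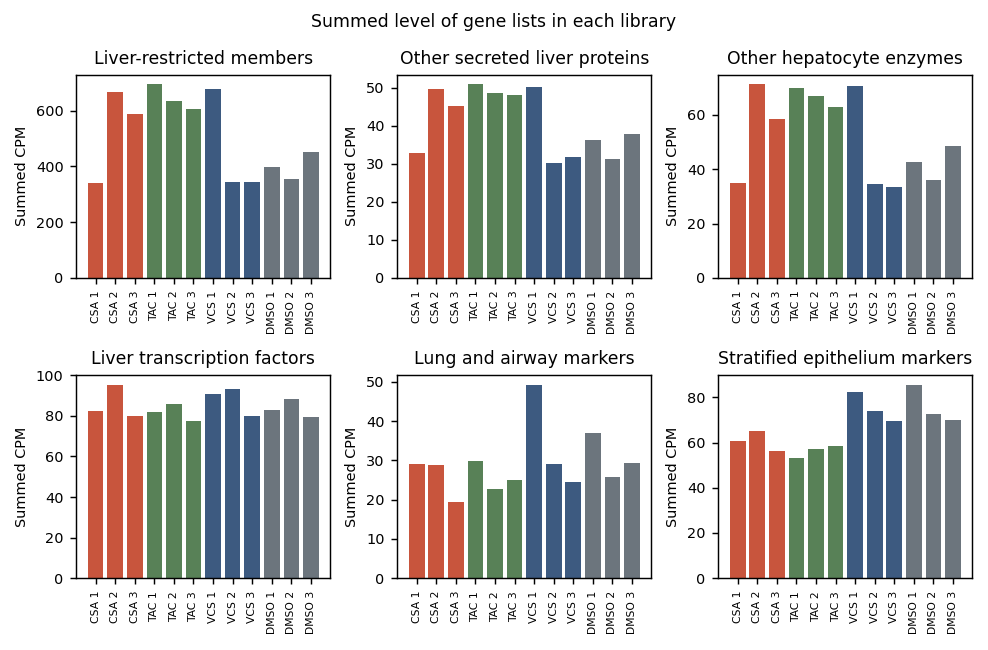
Bars are the summed CPM of a gene list in each of the 12 libraries, from 0, in the order CSA, TAC, VCS and DMSO. The top row, with the liver-restricted genes and both further liver lists, is high in the same 6 libraries, and the bottom row, with liver transcription factors (77.5 to 95.5 CPM), lung and airway markers and stratified epithelium markers, has other orders.

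Outside the list, the genes whose log2 CPM over the 12 libraries was most like that of the liver-restricted sum, by Pearson correlation used for ranking 22770 genes with a mean of 0.1 CPM or more, included TDO2, GATM, ALDH1L1, GC, BHMT, SULT2A1, PLIN5, CYP3A4 and AGXT. The libraries fall into high and low ones, so no correlation is given. TDO2, which starts tryptophan breakdown, was at 3.67, 7.48 and 6.37 CPM in CSA libraries, 7.28, 6.92 and 6.82 CPM in TAC libraries, 7.14, 3.27 and 3.47 CPM in VCS libraries, and 4.38, 3.44 and 4.58 CPM in DMSO libraries. Its ratio to the liver-restricted sum varied 1.18-fold over the 12 libraries, the least of the named genes. That ratio varied 2.18-fold for AGXT, 1.67-fold for SULT2A1 and 1.51-fold for PLIN5, whose level itself varied 1.56-fold. TDO2, GC, BHMT and CYP3A4 were already in the further liver lists.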

How the data were processed

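Expected counts per gene came from 12 poly(A) libraries with added ERCC RNAs and in-line UMIs, per the labels' protocols; the deposited table holds whole numbers, read here as estimated counts rounded by the authors, and the submitters' processing notes name Salmon and GRCh38 without versions. The sources used here do not say whether UMIs were collapsed or strand was used. Symbols were found for 62252 of 62262 identifiers, and positions came from GENCODE 29 on GRCh38. The 40 genes, the further lists and the tests were chosen with earlier results of these data known.

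Counts were rounded, filtered with filterByExpr (minimum count 10; 19784 genes left), scaled by TMM and fitted with edgeR 4.0.16 in R 4.3.3 over 4 groups of 3 libraries, with no covariate and 8 residual degrees of freedom. P-values are two-sided and adjusted by Benjamini-Hochberg over all tested genes, with a threshold of 0.05. CPM are edgeR's, on TMM-scaled library sizes, and levels were not tested. Intervals of fold changes use the residual degrees of freedom, and intervals of shares are exact Clopper-Pearson at 95%. Every gene of the list with 50 or more counts was described. From each other list, the gene with the most counts and any gene past the threshold were named, and up to 10 genes most like the liver-restricted sum; HNF4A, CEBPA, NPHS1, TRPC6, SYNPO and WT1 were added after their values were seen. Some genes this rule picks are not reported here. The fit was tested on simulated data.

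Alternatives were RLE size factors, plain library totals, no filter, DESeq2 1.42.0, a block on replicate number, a fit of the groups compared alone, and leaving out each library; ratios without each library were added after seeing the data. Deviations of same-numbered libraries correlated at over 0.1 in every pair for CSA against DMSO (0.103 to 0.22), TAC against DMSO (0.108 to 0.377) and VCS against TAC (0.232 to 0.532), a pairing that comes from the data and not the labels, and not for the other comparisons.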

Additional observations from a re-analysis of the deposited data

How the results depend on the processing

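The counts of genes passing moved with the settings, while no listed gene passed under RLE size factors, the replicate block, DESeq2, a fit of only the 2 groups compared or any library left out. In the order CSA, TAC and VCS over DMSO, VCS over CSA, CSA over TAC and VCS over TAC, genes passing were 86, 131, 69, 70, 87 and 101 without the filter, 6, 41, 0, 6, 65 and 41 with the replicate block, and 8, 38, 7, 12, 44 and 40 with DESeq2. A fit of only the 2 groups gave 1 for TAC over DMSO, 0 for VCS over DMSO, 1 for CSA over TAC and 0 for VCS over TAC. Without the filter, which tested 39923 genes, 14 listed genes passed for TAC over DMSO and 3 for VCS over TAC; the cause was not tested. Leaving out 1 library gave 0 to 2, 0 to 10, 0 to 8, 0 to 7, 0 to 6 and 0 to 12 genes in the same order. The median log2 fold change of the listed genes was then 0.26 to 0.70, 0.60 to 0.88, -0.33 to 0.40, -0.79 to -0.0097, -0.53 to -0.06 and -1.15 to -0.35. VCS 1 gave the extremes -0.33, -0.79 and -1.15. Summed CPM means of the liver-restricted genes were 464.8 to 626.7 in CSA, 621 to 665 in TAC, 343.8 to 511.8 in VCS and 376.6 to 425.7 in DMSO with 1 library left out. The median highest-over-lowest ratio to ALB was 1.61, and 1.57 to 1.61 with each library left out. Depth limits HRG, ADH4, CYP2E1 and AHSG, with 35 or fewer counts in any library.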
